A study of Gasterosteus aculeatus with 53 samples.

Results

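The comparison described here was between brains of Priest limnetic females of the threespine stickleback (Gasterosteus aculeatus) that had been courted by a conspecific male and brains of Priest limnetic females courted by a heterospecific male. Libraries were chosen by their labelled population and treatment, which gave 11 of the 53 libraries of the series, 5 from the conspecific and 6 from the heterospecific treatment. A further library labelled Priest limnetic and conspecific, that of trial 9, was left out together with the Paxton benthic library of trial 83, because their expression appeared to have been swapped. All of the fish were reproductive females taken from lakes on an island of British Columbia and kept in the laboratory. Paxton limnetic and Paxton benthic females, from another lake than the Priest females, went through the same treatments. Their libraries entered the shared model and the comparisons between populations given below. For Priest limnetic females, the male came from Priest Lake in both courtship treatments. He was limnetic in the conspecific and benthic in the heterospecific treatment. In the social control, 6 further Priest limnetic females were placed with a non-reproductive female from their own aquarium in place of a male. Each library held the poly(A) RNA of the whole brain of 1 fish, taken after the trial ended or when the female spawned, and libraries are named here by their trial number.

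Benthic and limnetic sticklebacks are young species that live together in a few lakes, the benthic fish feeding near the shore and bottom and the limnetic fish in open water. Females choose among courting males that differ in size, colour and display, and their choice of males of their own kind is one of the barriers that keep the species apart. Social and sexual signals can alter gene expression in the brain within minutes, which makes it possible to compare the transcriptomes of females that have met different males. In RNA from a whole brain, a change in the number of cells of a type and a change in the RNA that each such cell holds cannot be told apart.

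Reads were counted per gene. Total counts in conspecific libraries ranged between 36691463 and 43070315, and those in heterospecific libraries between 23849743 (trial 59) and 45154372 (trial 23). The treatments did not differ in mean total count beyond the spread of libraries (difference 4130900, two-sided exact permutation test over 462 splits, p = 0.264, where 0.00433 is the smallest p that 5 against 6 libraries allow). Between 20547 and 20709 genes had a count in conspecific libraries, against 19472 (trial 71) to 20706 genes in heterospecific libraries. Of the 22456 Ensembl gene identifiers in the table, 20011 had enough counts for edgeR's filter and were tested. None of the identifiers matched a gene of the RefSeq table used here, so genes are given without names or roles, 2 identifiers are printed in each direction, and markers could not be used to check the labelled tissue.

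A single gene was called between the treatments in edgeR, and the call was lost in some of the alternative fits given below. ENSGACG00000005913 was higher in females courted by a conspecific male, by 1.68-fold, and it was the only one of 20011 genes (0.005%) at an adjusted p under 0.1, the study's threshold, in edgeR's quasi-likelihood test with Benjamini-Hochberg adjustment. The model gave a mean to each of 9 groups of population by treatment over the 51 libraries the study analysed, which shared 1 estimate of the spread. Levels are given in CPM, the counts of each library scaled to a common size with edgeR's TMM factors. The gene stood at 38.3, 40.0, 29.8, 18.7 and 19.5 CPM in the conspecific libraries of trials 11, 15, 38, 52 and 68. In the heterospecific libraries it ranged between 15.8 and 19.7 CPM with a median of 17.1 CPM, and in the social control between 14.7 and 19.2 CPM with a median of 17.7 CPM. Thus 3 of the 5 conspecific females lay above every other fish, while the libraries of trials 52 and 68 lay within the range of the heterospecific libraries, so that the groups overlapped.

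The treatment means of ENSGACG00000005913 were 29.2 ± 10.0 CPM (SD, n = 5) with a conspecific male and 17.4 ± 1.34 CPM (SD, n = 6) with a heterospecific male. The log2 fold change was 0.75 (standard error 0.12, 95% interval 0.51 to 0.99, adjusted p = 0.00277 in edgeR). This standard error, interval and p rest on the spread shared by the 9 groups. In every other group the gene's SD lay between 0.632 and 2.54 CPM, so the interval may be too narrow for conspecific females. The mean of conspecific females was also above that of the social control, at 17.4 ± 1.56 CPM (SD, n = 6), with a log2 fold change of 0.75 (adjusted p = 0.00275 in edgeR, where 4 genes, or 0.02%, were called in that contrast). Heterospecific females and the social control differed by a log2 of -0.00 (95% interval -0.23 to 0.23, adjusted p = 0.999 in edgeR). These contrasts with the social control share their conspecific or heterospecific libraries with the main one. The gene's spread was larger among conspecific females than elsewhere in the series, as its remaining 48 of 51 libraries, from all populations and treatments, lay between 12.8 and 19.8 CPM. The library labelled trial 9, had it been kept, would have added a value of 15.8 CPM to the conspecific females. If the labels were swapped as it appeared, the Priest limnetic conspecific female is the library labelled trial 83, at 17.3 CPM. With all 53 libraries under their labels the adjusted p was 0.219 in edgeR. Without the library of trial 11 it was 0.105, and in fits of the 17 Priest limnetic libraries or the 11 compared libraries alone it was 1.00, at log2 fold changes of 0.75 in both.

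**Figure D1:**
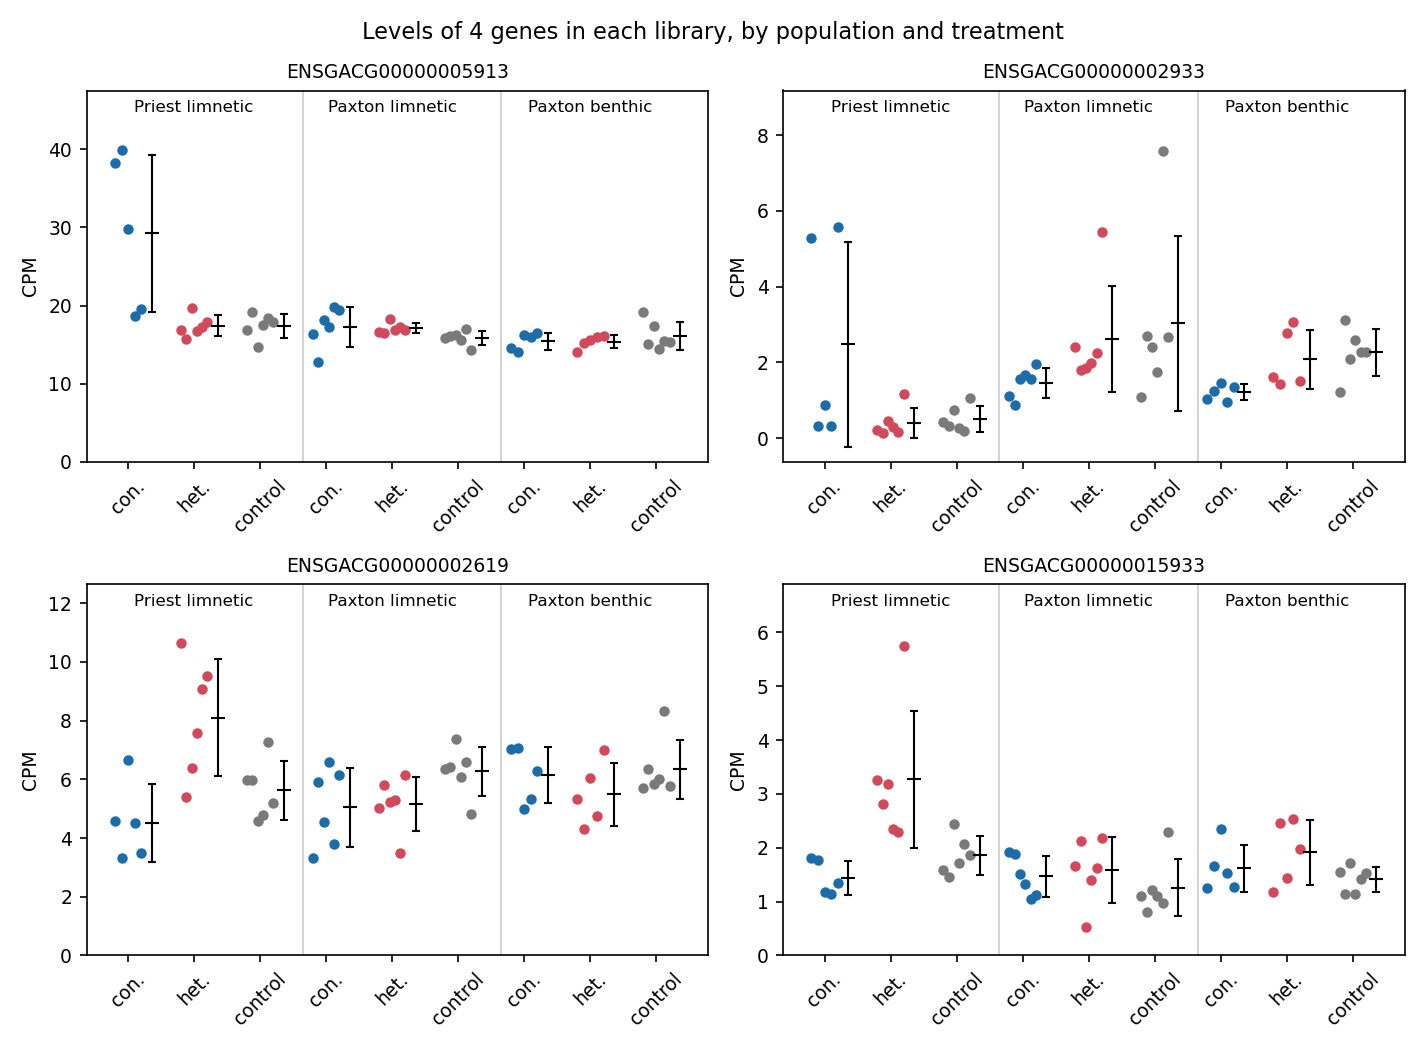
Levels in CPM (vertical axis, linear) of the 4 genes with the smallest edgeR p in the comparison, 2 in each direction, in each of the 51 libraries by population and treatment. Points are libraries and the bars beside them the group mean and SD. Only 3 Priest limnetic females courted by a conspecific male exceeded 20 CPM for ENSGACG00000005913, and only ENSGACG00000015933 separated the conspecific from the heterospecific Priest limnetic females without overlap.

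The other 3 identifiers printed were chosen after their values were seen, as the genes with the next smallest edgeR p in each direction, and none of them passed the threshold in edgeR. ENSGACG00000002933 stood at 5.29, 0.321, 0.879, 0.309 and 5.56 CPM in the conspecific libraries of trials 11, 15, 38, 52 and 68, against a range of 0.124 to 1.17 CPM and a median of 0.25 CPM in heterospecific libraries. Its higher mean with a conspecific male, 2.47 ± 2.71 CPM (SD, n = 5) against 0.401 ± 0.392 CPM (SD, n = 6) with a heterospecific male, came from the libraries of trials 11 and 68, and the other 3 conspecific libraries lay among the heterospecific ones. The log2 fold change was 2.62 (standard error 0.56, adjusted p = 0.179 in edgeR, 0.00432 in DESeq2 and 1.00 in limma-voom). The social control lay between 0.193 and 1.06 CPM. Levels as high as those of trials 11 and 68 also occurred in Paxton limnetic females, at 5.45 CPM with a heterospecific male (trial 70) and at 7.59 CPM in the social control (trial 61). Of the libraries left out as swapped, that labelled trial 83 stood at 15.5 CPM, above every other library, and that labelled trial 9 at 1.26 CPM. If the labels were swapped as it appeared, the library at 15.5 CPM is a Priest limnetic conspecific female. It would then be a further high value in that treatment. No fit with the labels exchanged is given here.

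Of the genes with lower levels after courtship by a conspecific male, ENSGACG00000002619 stood at 4.57, 3.32, 6.68, 4.50 and 3.49 CPM in the conspecific libraries of trials 11, 15, 38, 52 and 68. In heterospecific libraries it ranged between 5.41 and 10.6 CPM with a median of 8.33 CPM. Trial 38 was the 1 conspecific library that reached the heterospecific range. The means were 4.51 ± 1.34 CPM (SD, n = 5) with a conspecific and 8.10 ± 1.99 CPM (SD, n = 6) with a heterospecific male, and the social control lay between them at 5.63 ± 1.00 CPM (SD, n = 6). The log2 fold change was -0.84 (standard error 0.18, adjusted p = 0.179 in edgeR, 0.00978 in DESeq2 and 0.295 in limma-voom).

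ENSGACG00000015933 separated the treatments completely. It stood at 1.80, 1.76, 1.18, 1.13 and 1.34 CPM in the conspecific libraries of trials 11, 15, 38, 52 and 68, against 2.29 to 5.74 CPM in heterospecific libraries, with a median of 3.00 CPM and the highest value in trial 71. The means were 1.44 ± 0.32 CPM (SD, n = 5) with a conspecific male and 3.27 ± 1.27 CPM (SD, n = 6) with a heterospecific male. The log2 fold change was -1.18 (standard error 0.27, adjusted p = 0.320 in edgeR, 0.0229 in DESeq2 and 0.324 in limma-voom). The social control, between 1.46 and 2.43 CPM, overlapped both treatments.

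Over the whole transcriptome, the median absolute log2 fold change of the tested genes was 0.09, and the median standard error of the log2 fold change was 0.15. The scaling of the libraries centres the fold changes, so their median of -0.00 is no result. For 16780 genes (83.9%) the 95% interval of the fold change lay within 2-fold in either direction, and for 12594 genes (62.9%) within a log2 of 0.5, or 1.41-fold. For these genes, changes of the mean beyond those limits lay outside the interval at the depth and replication of these libraries. After ENSGACG00000005913, the smallest adjusted p of any gene in edgeR was 0.179.

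**Figure D2:**
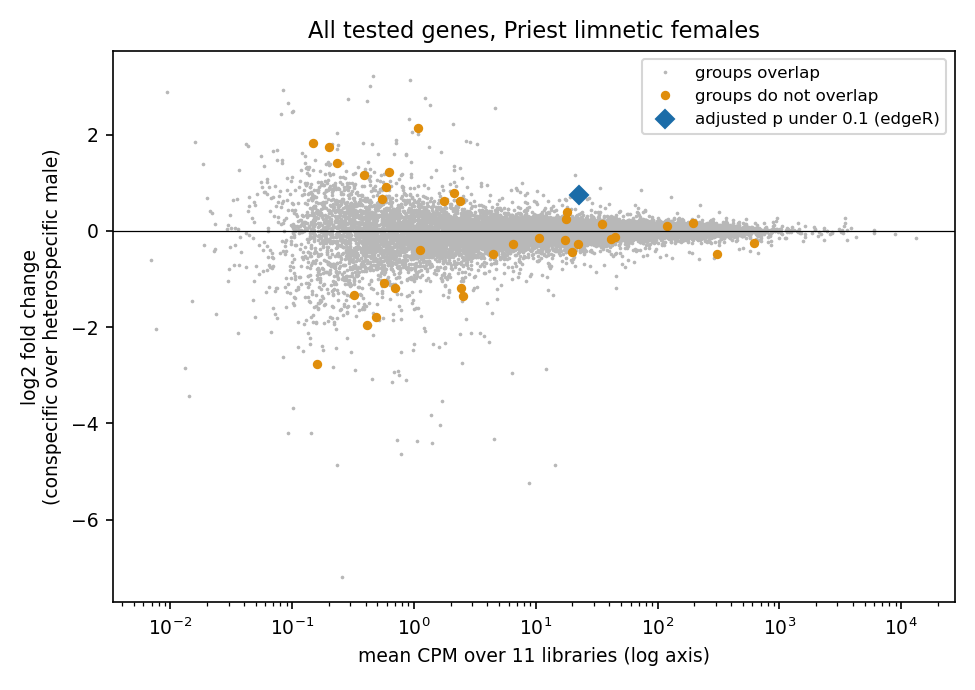
Log2 fold change of the conspecific over the heterospecific treatment (vertical axis) against mean CPM in the 11 libraries (horizontal axis, logarithmic) for each of the 20011 tested genes. Grey points are genes whose groups overlap, orange points the 35 whose groups do not, and the blue diamond the 1 gene called by edgeR, and most points of well expressed genes lie close to 0.

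Without adjustment, 669 genes (3.34%) had an edgeR p under 0.05, 245 of them higher and 424 lower with a conspecific male. That is a smaller share than the threshold itself would give without any difference. At an unadjusted p under 0.01 there were 165 genes, and under 0.001 there were 35. These genes were weakly expressed, with a median of 3.58 CPM against 17.3 CPM over all tested genes. Of the 424 lower genes, 193 had their highest value of the 11 libraries in trial 71 and 92 in trial 13. Each other heterospecific library was highest in 24 to 44 of them. Over all tested genes, trial 71 was highest in 17.5% and trial 13 in 6.74%, and each other heterospecific library in 5.72% to 13.8%. Of the 245 higher genes, the highest value was in trial 68 in 68 genes, in trial 15 in 54, in trial 11 in 45, in trial 38 in 39 and in trial 52 in 36. In the same order, these libraries were highest in 9.27%, 12.1%, 4.42%, 7.29% and 5.76% of all tested genes. Choosing genes by direction favours a peak in the libraries of the higher treatment. For higher and lower genes alike, the shares over all tested genes are therefore no like baseline. Without trial 71 there were 505 genes at an unadjusted p under 0.05, 202 higher and 303 lower, and 3 called genes, all higher.

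The values of the 5 conspecific and 6 heterospecific libraries did not overlap for 35 of the tested genes (0.175%), with 16 genes higher (0.08%) and 19 lower (0.0949%) after courtship by a conspecific male. For a gene without a difference, 5 against 6 libraries separate completely with a probability of 0.00433. The observed share was below that probability, so there was no excess of separated genes. Of the 35 genes, 22 had a mean of at least 1 CPM, 9 higher and 13 lower, and 16 of the 22 differed by a log2 of less than 0.5. Most of these differences were thus small. One such gene, highly expressed, lay between 203 and 223 CPM in conspecific and between 181 and 195 CPM in heterospecific libraries, with a log2 fold change of 0.16 (standard error 0.06). Another lay between 504 and 602 CPM in conspecific and between 618 and 729 CPM in heterospecific libraries, with a log2 fold change of -0.25 (standard error 0.12). The social control bridged these gaps, at 189 to 216 CPM for the first and 438 to 655 CPM for the second. In 17 of the 22 genes its mean lay between the means of the male treatments, against 25.3% of all genes with a mean of at least 1 CPM. Choosing genes without overlap favours this order.

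The libraries did not group by treatment in a principal component analysis of log2 CPM over the tested genes. PC1 held 27.5% of the variance and set the heterospecific library of trial 71, with a score of 103, apart from the other 10, which ranged from -19.2 to -2.85. The mean PC1 scores were -9.76 ± 6.11 (SD, n = 5) with a conspecific male and 8.13 ± 46.7 (SD, n = 6) with a heterospecific male (difference -17.9, two-sided exact permutation test, p = 0.786). In every split the PC1 difference depends mostly on which side holds trial 71. That test therefore cannot tell whether the other 10 libraries differ by treatment. PC2 held 14.0% of the variance, with mean scores of -3.87 ± 18.6 (SD, n = 5) in conspecific and 3.23 ± 30.2 (SD, n = 6) in heterospecific libraries (difference -7.10, exact permutation p = 0.636). Adjusted over both components, each p was 0.786. On PC2, conspecific libraries ranged between -33.7 and 16.3 and heterospecific libraries between -32.3 and 43.2. With trial 71 left out, the differences were -8.49 on PC1 (exact permutation p = 0.627) and -0.32 on PC2 (exact permutation p = 0.992).

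**Figure D3:**
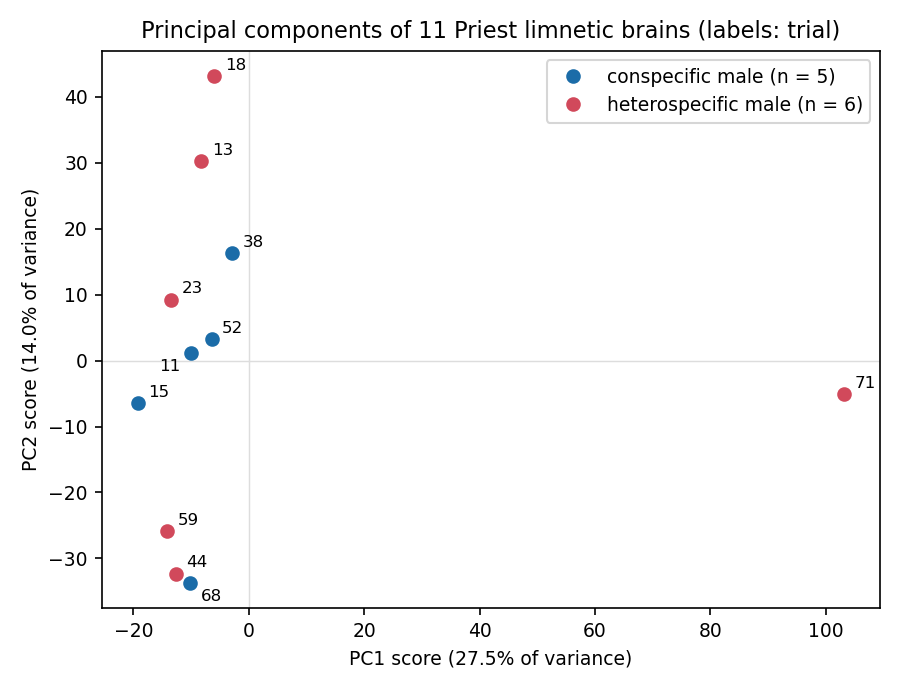
Scores of the 11 Priest limnetic libraries on the first principal component (horizontal axis) and the second (vertical axis) of log2 CPM, in arbitrary units, labelled by trial. Blue points are conspecific and red points heterospecific libraries. Trial 71 lies alone at 103 on PC1 and the other 10 libraries of both treatments are intermixed.

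Females of 1 treatment differed from each other about as much as females of different treatments. The root mean square difference between libraries in log2 CPM averaged 0.576 within the conspecific treatment, 0.711 within the heterospecific treatment and 0.638 between them. Without trial 71 the averages were 0.576, 0.613 and 0.588 in the same order. Trial 71 differed from the other 10 libraries by 0.898, and it had 30699300 counts, less than all others but trial 59, with the fewest genes detected. Of the 17428 tested genes with a mean of at least 1 CPM, trial 71 was at least 2-fold above all of the other 10 libraries in 55. It was at least 2-fold below all of them in 206, where any other library had 3 to 32 and 3 to 40 such genes. Whether depth or gene detection had a part in the position of trial 71 was not tested.

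With DESeq2, the tool used in the study, 28 of 21300 genes (0.131%) passed the same threshold, 9 higher (0.0423%) and 19 lower (0.0892%) with a conspecific male, and limma-voom with sample weights called 2 genes (0.00999%). All 4 genes printed above were among the 28. Their expression was low, with a median of 2.42 CPM and 7 genes under 1 CPM, and 26 of the 28 were also in the set tested by edgeR. The smallest adjusted p in DESeq2, 2.1e-20, was that of a gene without counts in conspecific libraries. Its log2 fold change of -48.1 is no estimate of size. The next, at 8.6e-07 in DESeq2 and -28.9, averaged 0.0149 CPM, with counts in trials 18 and 44 alone. Another gene without conspecific counts stood at -29.3. In 26 of them the treatments overlapped. In 16 the highest library was at least 5 times the median of its own treatment. That count includes genes with a median of 0, and the share over all tested genes is not given here. Among the 19 lower genes the highest library was trial 13 in 10 genes, trial 71 in 4, trial 59 in 3, and trials 18 and 44 in 1 each. In the same order, these libraries were highest in 6.74%, 17.5%, 8.52%, 13.8% and 8.84% of the genes tested by edgeR. Among the 9 higher genes the highest library was trial 11 in 3 genes, trial 68 in 3, trial 15 in 2 and trial 38 in 1. Those libraries were highest in 4.42%, 9.27%, 12.1% and 7.29% of the genes tested by edgeR, in the same order. As above, choosing genes by direction favours such peaks, so in neither direction are these shares a like baseline.

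**Figure D4:**
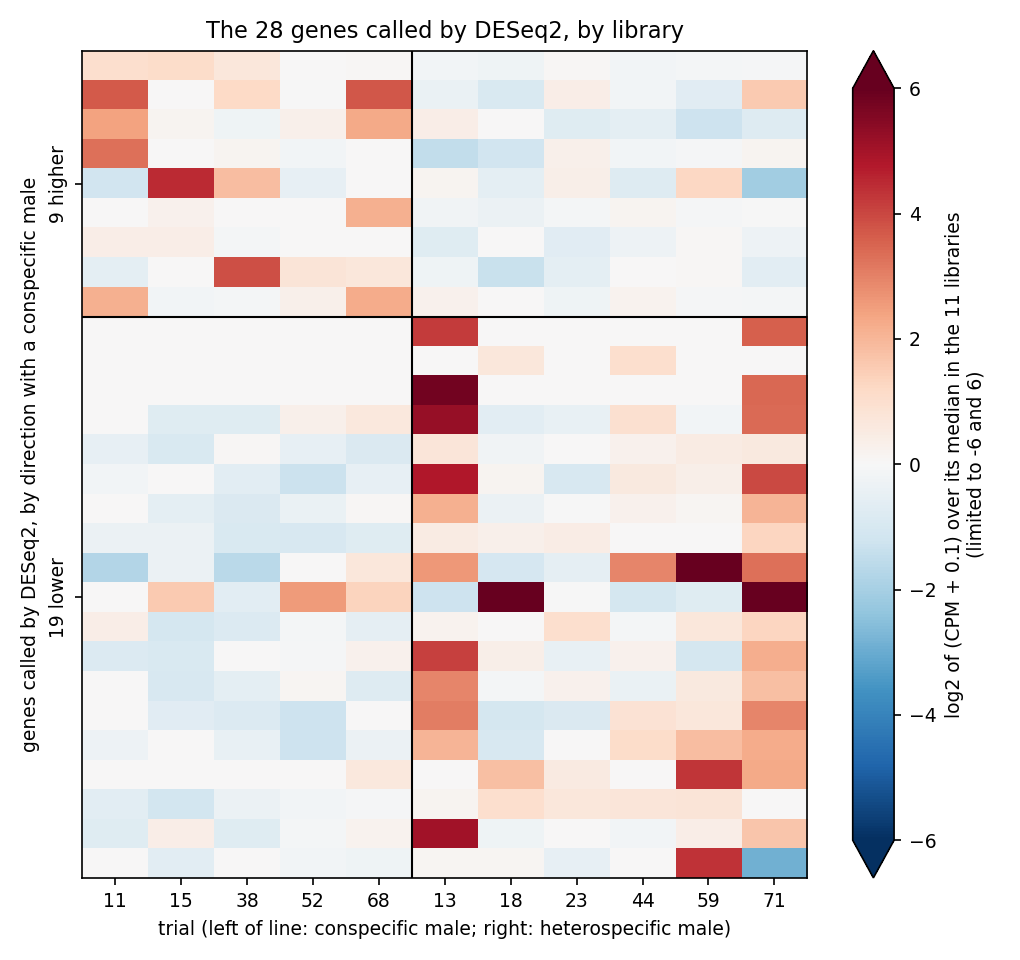
Levels of the 28 genes called by DESeq2 (rows, 9 higher above and 19 lower below) in the 11 libraries (columns, by trial), coloured by log2 of CPM plus 0.1 over the gene's median, limited to -6 and 6. Of the 19 lower genes, 11 lie at least 4-fold above the gene's median in trial 13 and 11 in trial 71, against 0 to 3 in each other heterospecific library, and the limit of 6 is reached once each in trials 18, 59 and 71.

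Trials 13 and 71 had the highest pair of heterospecific values in 12 of the 19 lower genes, against 6.68% of all tested genes. The same females stood out when all 55 pairs of the 11 libraries were compared. For each pair, genes were counted in which both libraries were at least 2-fold above the other 9. Only the 17428 tested genes with a mean of at least 1 CPM over the 11 libraries entered this count. Trials 13 and 71, both heterospecific, shared 8 such genes, trials 11 and 68, both conspecific, shared 7, the next pair shared 4, and 28 pairs shared none. DESeq2 had called 6 of the 8 genes and 3 of the 7, and edgeR none. The pairs and the DESeq2 calls come from the same libraries and share genes, so neither is separate support for the other.

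Summed over the 8 genes, the level was 131 CPM in trial 13 and 54.9 CPM in trial 71, and 5.77 to 11.7 CPM in the other 9 libraries. Such levels were rare but not limited to Priest limnetic females courted by a heterospecific male. In the 40 libraries not compared, the median was 9.70 CPM, and 1 exceeded trial 71, the Paxton limnetic heterospecific library of trial 37 at 58.0 CPM. Over the 7 genes that include ENSGACG00000002933, the sum was 49.9 CPM in trial 11 and 52.7 CPM in trial 68, against 5.75 to 11.7 CPM in the other 9. Here the median of the 40 libraries was 15.6 CPM, and the Paxton limnetic social control of trial 61 stood at 64.3 CPM. These genes were picked for their levels in these pairs, and their sums are a description only.

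The number of genes called changed with the females included. With 1 of the 11 libraries left out, edgeR called 0 genes without trial 11, 8 without trial 38, 5 without trial 52, 4 without trial 18, 3 without each of trials 13, 15 and 71, and 1 without each of the other 4. ENSGACG00000005913 was among the called genes in every one of these fits but the one without trial 11, with log2 fold changes of 0.61 to 0.87 over all of them. DESeq2 called 13 genes without trial 71, 15 without trial 38, 17 without trial 13, 19 without trial 11, and 22 to 33 without any other library. Of the 28 genes, 3 were called by DESeq2 with all 11 libraries and with any 1 of them left out, among them ENSGACG00000005913 and ENSGACG00000002619. The remaining one averaged 0.257 CPM, with counts in trials 13 and 71 alone of the 11 libraries and an adjusted p of 1 in edgeR. Without trials 13 and 71 together, DESeq2 called 13 genes, 6 of them among the 28. ENSGACG00000005913 was still called in that fit (adjusted p = 0.000615 in DESeq2), and ENSGACG00000002619 was not (log2 fold change -0.65, adjusted p = 0.470 in DESeq2).

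**Figure D5:**
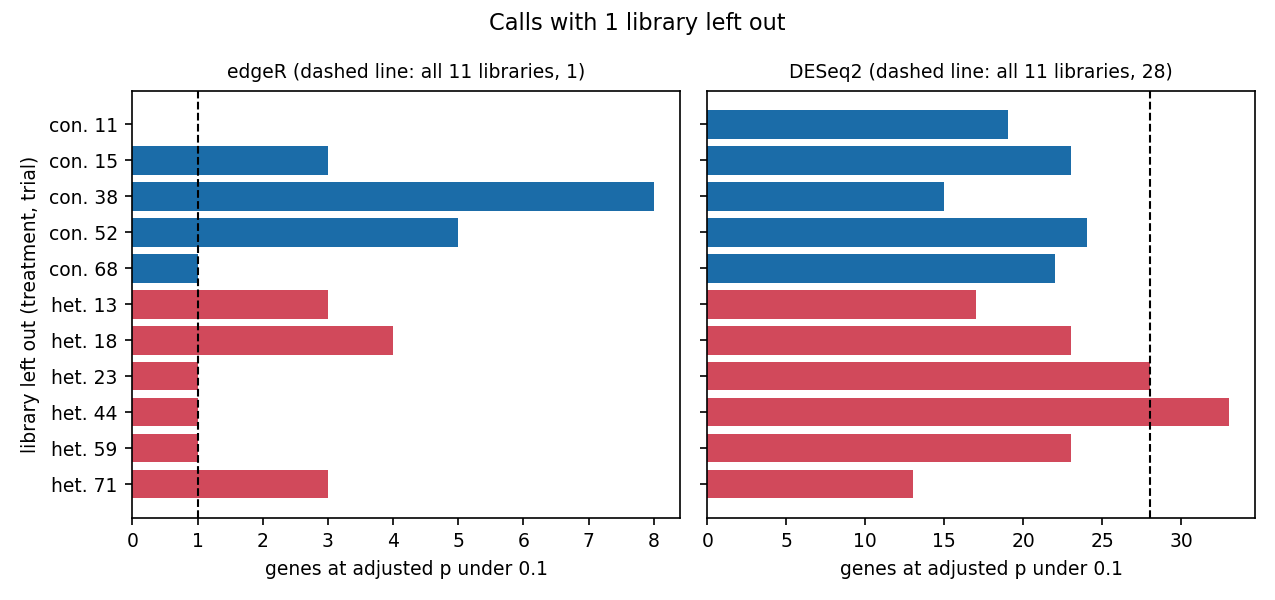
Number of genes at an adjusted p under 0.1 (horizontal axes, linear from 0) with each of the 11 libraries left out in turn (rows, blue conspecific and red heterospecific), in edgeR on the left and DESeq2 on the right. Dashed lines mark the counts with all libraries, 1 and 28, and the fits give 0 to 8 genes in edgeR and 13 to 33 in DESeq2.

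The response to the male was then compared with that of Paxton females, as the difference between populations in the conspecific over heterospecific change. The males of Paxton females came from Paxton Lake. For Paxton limnetic females the conspecific male was limnetic, as for Priest limnetic females. For Paxton benthic females the conspecific male was benthic and the heterospecific male limnetic, so that contrast reverses the species of the males. No gene was called as differing from the Paxton limnetic response in edgeR (0%), while DESeq2 called 6 genes (0.0276%) and limma-voom 0. In edgeR, 1308 genes (6.54%) had an unadjusted p under 0.05, a larger share than the threshold itself would give without any difference. Genes share libraries, and whether this share is an excess was not tested. Likewise no gene was called as differing from the Paxton benthic response in edgeR (0%), while DESeq2 called 9 (0.0414%) and limma-voom 1 (0.005%). Here 631 genes (3.15%) had an unadjusted p under 0.05 in edgeR, a smaller share than that threshold would give. For ENSGACG00000005913 the log2 response of Priest limnetic females exceeded that of Paxton limnetic females by 0.73 (standard error 0.17, adjusted p = 0.379 in edgeR and 0.0873 in DESeq2) and that of Paxton benthic females by 0.75 (standard error 0.18, adjusted p = 0.472 in edgeR and 0.101 in DESeq2). Within the Paxton populations the gene's log2 fold change was 0.02 (95% interval -0.22 to 0.25) in limnetic and 0.00 (95% interval -0.25 to 0.26) in benthic females. A response of the size seen in Priest limnetic females lay outside both intervals, but the difference in response passed the threshold in DESeq2 against Paxton limnetic females alone. Both comparisons share the Priest limnetic libraries.

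For ENSGACG00000002933 the response exceeded that of Paxton limnetic females by a log2 of 3.46 (adjusted p = 0.379 in edgeR and 0.0111 in DESeq2) and that of Paxton benthic females by 3.40 (adjusted p = 0.472 in edgeR and 0.0512 in DESeq2). For ENSGACG00000002619 the difference was -0.81 against Paxton limnetic and -1.0 against Paxton benthic females, with an adjusted p of 0.504 and 0.745 in edgeR. For ENSGACG00000015933 it was -1.06 and -0.93 in the same order, with an adjusted p of 0.576 and 0.994 in edgeR. The lower level of the last 2 genes with a conspecific male was thus not shown to differ between populations.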

How the data were processed

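Brains of 53 females were sequenced, 1 library per fish, in 8 lanes. The deposited values are counts of reads per gene, without normalization. The authors combined the lanes of each fish, trimmed with Trimmomatic 0.33 and aligned with bwa 0.7.7 to the Ensembl BROAD S1 genome. Alignments were converted, sorted and indexed with samtools 1.2, and genes were counted with bedtools 2.23.0. The strand setting was not given in the sources used here, so overlapping and antisense genes may share reads. Here, genes passing edgeR's filterByExpr were scaled by TMM and tested with edgeR 4.0.16 (glmQLFit, glmQLFTest; R 4.3.3) in a model of 9 group means over 51 libraries, called at a Benjamini-Hochberg adjusted p under 0.1. DESeq2 1.42.0 and limma-voom with sample quality weights (limma 3.58.1) were alternatives, and DESeq2 p-values set to NA were not counted. The scripts were checked on simulated data. Trials 9 and 83 were left out as in the study. Single values were tested by two-sided exact permutation. Principal components used log2 CPM with a prior count of 2.

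No column was left without a sample. The rule for named genes took every edgeR call, the 8 largest changes in each direction without overlap at 1 CPM or more, and the 5 smallest adjusted p of DESeq2 in each direction, and allowed 2 identifiers per direction where no table pairs them with names. The 4 printed fall under it, and were picked from it by the smallest edgeR p after their values were seen. No identifier matched, so the 10 pathway and 12 marker lists fixed by symbol could not be applied. Members, lists and tests were chosen with earlier results of these data known. Trial numbers name libraries and pair none of them. The p-values measure the spread between fish, whose kinship and day of trial were not used.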

Additional observations from a re-analysis of the deposited data

Results flagged for a closer look

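In each group of 5 or 6 libraries, the 4 printed genes (9 groups each) and, in the 2 groups compared, the total count and both principal components were examined for a single library far from the rest, relative to the range of its group. In 7 of 42 groups of values 1 library stood out, where chance gives about 5% if values are normally distributed. CPM were not shown to be so, and the 4 genes were picked after their values were seen. No excess over chance is read from this count. Several of the 7 groups share libraries or genes. The heterospecific Priest limnetic library of trial 71 accounted for 3 of them. It stood at 103 on PC1, where the next library stood at -5.97. It had 1.17 CPM of ENSGACG00000002933, with the next at 0.448 CPM, and 5.74 CPM of ENSGACG00000015933, with the next at 3.25 CPM. The other 4 lay in Paxton females. ENSGACG00000002933 stood at 5.45 CPM in the Paxton limnetic heterospecific library of trial 70 (next 2.40 CPM) and at 7.59 CPM in the Paxton limnetic social control of trial 61 (next 2.69 CPM). ENSGACG00000015933 stood at 2.30 CPM in the Paxton limnetic social control of trial 79 (next 1.21 CPM), and ENSGACG00000002619 at 8.32 CPM in the Paxton benthic social control of trial 89 (next 6.37 CPM). All 7 were the highest of their group.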

How the results depend on the processing

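The count of 1 gene in edgeR was the same with RLE size factors, without the filter on low counts, with robust dispersion and at a threshold of 0.05. It was 28 with DESeq2, 2 with limma-voom, 2 with trial number as a covariate, and 0 with all 53 libraries, with the 17 Priest limnetic libraries alone and with the 11 compared libraries alone. The cause of these changes was not tested. Leaving out 1 library gave 0 to 8 genes in edgeR. In DESeq2 it gave 19, 23, 15, 24 and 22 genes without conspecific trials 11, 15, 38, 52 and 68, and 17, 23, 28, 33, 23 and 13 without heterospecific trials 13, 18, 23, 44, 59 and 71. Leaving out trials 13 and 71 together gave 6 in edgeR and 13 in DESeq2. The DESeq2 fits without 1 library and the fits without this pair were added after the data were seen. The response difference from Paxton limnetic females, 0 genes in edgeR, was 6 in DESeq2 and 0 to 2 with 1 library left out. That from Paxton benthic females, also 0, was 9 in DESeq2, 1 in limma-voom and 0 to 1 with 1 library left out. The PC2 difference changed sign to 2.07 (exact permutation p = 0.827) on variance-stabilized values and to 1.2 (exact permutation p = 0.943) without trial 68, and ranged between -14.8 and 1.2 with 1 library left out. ENSGACG00000005913 was called in 18 of 22 alternatives, ENSGACG00000002933 in 8, ENSGACG00000002619 in 3 and ENSGACG00000015933 in 1, all without a change of sign. The alternatives for gene lists were not run, since no identifier matched a symbol. No paired analysis was possible because the treatments share no trial number. With the spread shared by all groups, the 95% interval of the fold change lay within 2-fold for 83.9% of tested genes. For the others it reached further.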
